A study of Mus musculus with 18 samples.

Results

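The step from wild-type epiblast-like cells (EpiLCs) to day 6 primordial germ cell-like cells (PGCLCs) was measured by RNA-seq in 4 of the 18 libraries of the series, 2 biological replicates of each stage, taken by their labels. Both stages came from E14Tg2a, a mouse embryonic stem cell (ESC) line, with no Tet gene deleted. ESCs were kept in N2B27 medium with 2 kinase inhibitors (CHIR99021 and PD0325901) and LIF, then turned into EpiLCs in 44 h in N2B27 with human Activin A and Fgf. PGCLCs were made from EpiLCs in 6 days of suspension culture in GK15 medium with BMP4, BMP8a, SCF, LIF and EGF. The labels call the day 6 libraries aggregates, whereas the study says that these cells were sorted as positive for both SSEA1 and CD61, the surface markers of PGCLCs. EpiLCs were not sorted, so the effects of time, suspension culture, cytokines and the sort cannot be told apart in this comparison. Wild-type day 6 cells grown in the same medium without cytokines and collected as whole aggregates gave 2 further libraries, which are set beside the PGCLCs where this is said. The other libraries, among them cells lacking TET1, TET2 and TET3, entered only the shared estimate of the spread between replicates.

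EpiLCs are an in vitro counterpart of the formative epiblast, the state that follows the naive pluripotency of ESCs and can still answer a germline signal. In the embryo, BMP4 from the extraembryonic ectoderm leads a few epiblast cells to express Prdm1, Prdm14 and Tfap2c, which silence somatic genes and restore part of the naive network. Migrating primordial germ cells (PGCs) then lose most of their DNA methylation, while genes of meiosis and of the piRNA pathway are reached only later.

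The libraries held 16674967 and 41257861 counts in EpiLCs and 26130723 and 28810831 in PGCLCs. The ribosomal locus Rn45s took 47.6% and 40.7% of the EpiLC counts and 33.7% and 36.4% of the PGCLC counts, and leaving it out changed no call of a gene named here. Levels are given as normalised counts (counts divided by DESeq2 size factors), in the order replicate 1 then replicate 2, and can be compared between libraries but not between genes, since gene length was not taken out. In bulk RNA, fewer cells of a type and less RNA per cell cannot be told apart.

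Across 16582 genes compared by the quasi-likelihood test of edgeR (p adjusted by Benjamini-Hochberg), 3721 rose (22.4%) and 3014 fell (18.2%) in PGCLCs at an adjusted p below 0.05. These shares are the reference for every count of list members that rose or fell between EpiLCs and PGCLCs. When the log2 fold change also had to lie beyond 2 or -2, 1257 genes were higher (7.58%) and 657 lower (3.96%). The median log2 fold change of all tested genes was 0.07. It was 0.45 when libraries were scaled by their totals alone, which raised the share of rising genes among those past the adjusted p from 55.2% to 78.2% and the share of higher genes among those past both limits from 65.7% to 79.5%. Changes are therefore read relative to that median, and directions that turn under this scaling are given as such. The number of falling genes was 2002 without EpiLC replicate 1, 2004 without EpiLC replicate 2, 1904 without PGCLC replicate 1 and 1775 without PGCLC replicate 2, and the number of rising genes was 2458 and 2445 without EpiLC replicates 1 and 2. The plot of all tested genes shows Prdm14, Tbx3 and Tfap2c among the largest increases at high levels and Dnmt3b among the largest decreases.

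**Figure D1:**
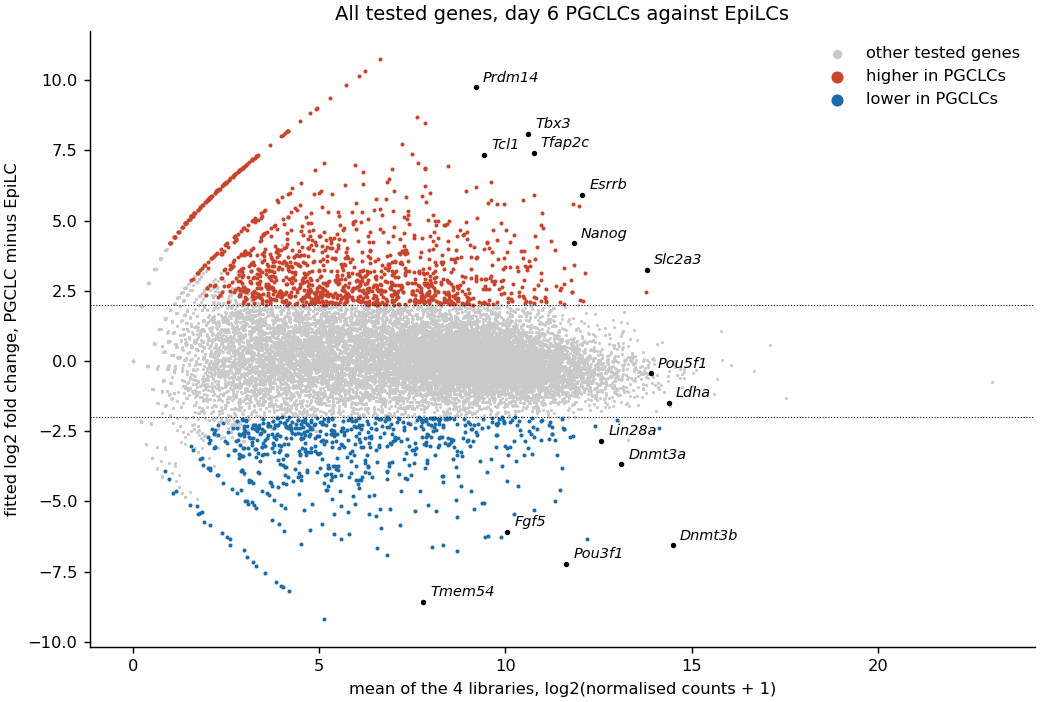
Each point is a tested gene, placed by the mean of its 4 libraries (x axis, log2 of normalised counts plus 1) and its fitted log2 fold change in PGCLCs against EpiLCs (y axis); red points are the 1257 genes higher and blue points the 657 genes lower in PGCLCs, and dotted lines mark log2 fold changes of 2 and -2. The streaks at the left are genes with almost no counts in one stage, whose fitted fold change depends on the prior count.

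The labels held against marker genes of both stages. All 6 PGCLC markers (Prdm1, Prdm14, Tfap2c, Dppa3, Nanos3 and Nanog) rose, and of the 5 EpiLC markers Fgf5, Pou3f1, Dnmt3b and Sox3 fell, while Otx2 was lower in both PGCLC libraries but missed the threshold. The genes behind the sort also moved with it. Itgb3, which encodes CD61, had 8 and 7.8 in EpiLCs and 537 and 443 in PGCLCs, and Fut9, the fucosyltransferase that makes SSEA1, had 143 and 158 in EpiLCs and 740.5 and 649 in PGCLCs. Both bear on the markers used to choose the cells, so their change is no finding.

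Prdm14, Tfap2c and Prdm1, the factors that specify the germline, rose from low EpiLC levels. Prdm14 (chromosome 1, 13113428 to 13127163, mm10), a PR-domain protein that represses Dnmt3b and somatic genes, had 2 counts and 1 count in the EpiLC libraries and 1863 and 1626 in the PGCLC libraries, or 3.2 and 0.6 in EpiLCs and 1295 and 1046 in PGCLCs after normalisation, at least 361-fold higher when 3 counts are taken as the EpiLC level in each library. Tfap2c (chromosome 2, 172545678 to 172558622), the AP-2γ factor downstream of Prdm1, had 19.3 and 21.1 in EpiLCs and 4013 and 2851 in PGCLCs (log2 fold change 7.42, standard error 0.32, adjusted p = 4.53e-09). Prdm1 (chromosome 10, 44437174 to 44528558), which encodes BLIMP1, had 73.9 and 53.9 in EpiLCs and 1899.6 and 1755 in PGCLCs (log2 fold change 4.91, standard error 0.39, adjusted p = 3.98e-07). For each of these genes both PGCLC libraries were above both EpiLC libraries. Of the 9 specification and core factors listed, 6 rose and 1 fell, with a median log2 fold change of 3.13 against 0.07 over all genes. Cbfa2t2, the co-repressor partner of PRDM14, rose by 1.39 on the log2 scale.

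The core pluripotency genes split. Pou5f1, which encodes OCT4 and is held by pluripotent and germ cells alike, had 18550 and 17082 in EpiLCs and 13969 and 11621 in PGCLCs and did not pass the test (log2 fold change -0.43, adjusted p = 0.431). Sall4 likewise missed it, with 5668 and 5603 in EpiLCs and 8614 and 8147 in PGCLCs. Nanog rose by 4.19 on the log2 scale, from 422 and 359 to 6537 and 7239 normalised counts, and Sox2 by 3.13, from 1311 and 604 to 7721 and 8373. The EpiLC libraries differed most for Sox2 among these genes, with replicate 1 above replicate 2. Lin28a (chromosome 4, 134003330 to 134019196), the RNA-binding protein that blocks let-7 maturation, was the 1 factor of the list that fell, with 11104 and 10335 in EpiLCs and 1497 and 1407 in PGCLCs (log2 fold change -2.84, standard error 0.32, adjusted p = 9.57e-06). Its paralogue Lin28b fell too, with 798 and 1044 in EpiLCs and 178 and 157 in PGCLCs.

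**Figure D2:**
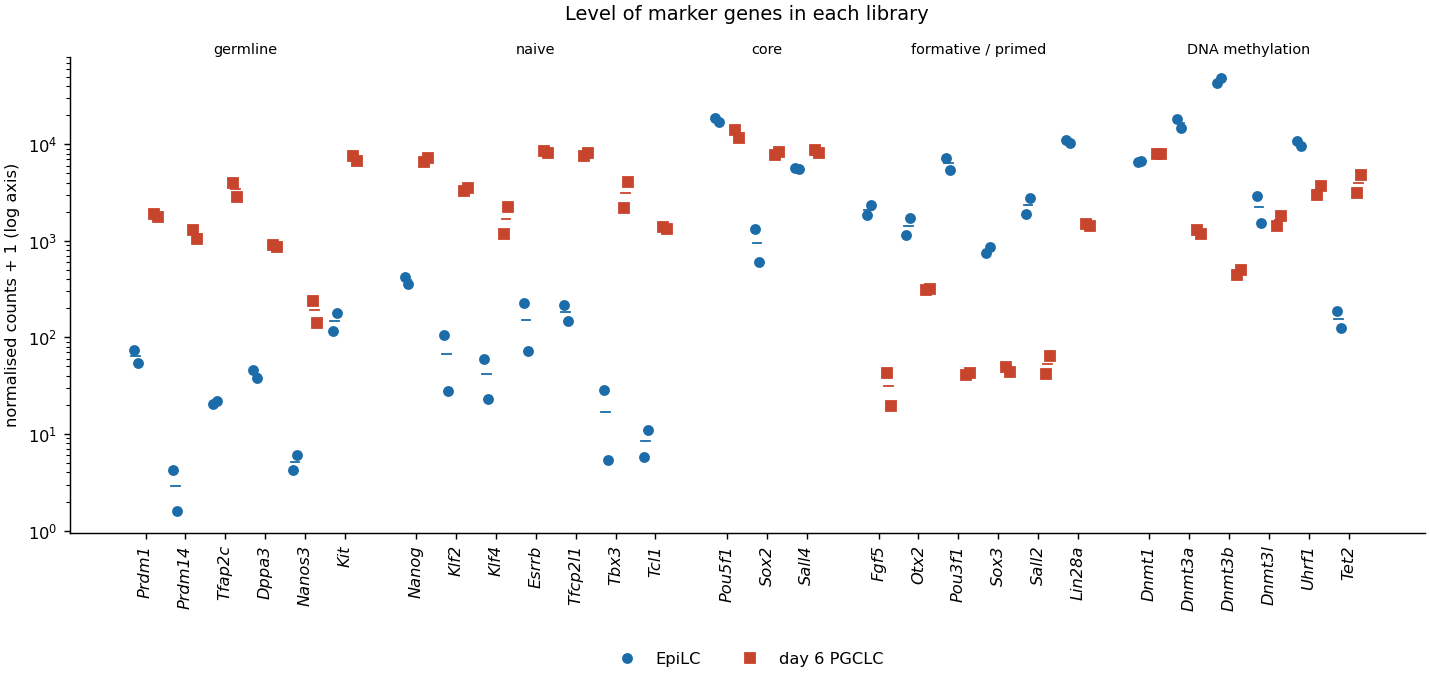
Normalised counts plus 1 (y axis, log scale) of named genes in each library; blue circles are the 2 EpiLC libraries, red squares the 2 day 6 PGCLC libraries, and short bars their means. Germline and naive genes sit higher in PGCLCs, formative genes and Dnmt3a, Dnmt3b and Uhrf1 lower, and Pou5f1 and Dnmt1 lie close together.

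Early PGC genes rose as a group. 15 of 19 passed the test upwards (78.95%, against 22.4% over all genes) and 0 downwards, with a median log2 fold change of 3.40. 2 of the 15, Itgb3 and Fut9, belong to the sort. Dppa3 (Stella), which shields chromatin from demethylation and marks nascent PGCs, had 45 and 36.7 in EpiLCs and 901 and 871 in PGCLCs (log2 fold change 4.50, standard error 0.45, adjusted p = 3.42e-06). Kit, the receptor of SCF, had 116 and 176 in EpiLCs and 7481 and 6649 in PGCLCs (log2 fold change 5.61, standard error 0.58, adjusted p = 5.07e-06). For both genes the PGCLC libraries were close to each other and far above the EpiLC libraries. Nanos3, an RNA-binding protein needed for PGC survival, had 3.2 and 5 in EpiLCs and 239 and 142 in PGCLCs and rose. Its partner Dnd1 rose by 2.07 on the log2 scale. Cxcr4, the receptor that guides PGC migration, had 11.2 and 5.6 in EpiLCs and 211 and 166 in PGCLCs. None of these overlapped between the stages. Tissue-nonspecific alkaline phosphatase, encoded by Alpl and the classical stain of PGCs, had 710.1 and 597 in EpiLCs and 6762 and 6643 in PGCLCs, and Pecam1, a PGC surface protein, had 345 and 187 in EpiLCs and 2801 and 2553 in PGCLCs. Of the surface proteins Ifitm1 (Fragilis2) and Ifitm3 (Fragilis), the first rose by 4.86 and the second by 1.85 on the log2 scale. The X-linked homeobox genes Rhox6 and Rhox9 had 706 and 351 and 700.2 and 331 in the PGCLC libraries against 25.7 and 12.2 and 19.3 and 11.7 in the EpiLC libraries, but they are close copies and their reads may be divided between them. Dppa4 and Dppa5a did not pass the test, and Dppa5a had 15902 and 11617 in EpiLCs and 20428 and 20278 in PGCLCs.

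The naive network returned alongside. 12 of 15 naive pluripotency genes rose (80%) and 2 fell (13.3%), against 22.4% and 18.2% over all genes. The median log2 fold change of this list, 4.06, was the highest median of the lists examined. Esrrb, the orphan nuclear receptor of the naive state, had 228 and 71.7 in EpiLCs and 8563 and 8172 in PGCLCs (log2 fold change 5.93, standard error 0.77, adjusted p = 3.67e-05). Klf2 had 106 and 26.7 in EpiLCs and 3295 and 3546 in PGCLCs, Klf4 59.4 and 22.2 in EpiLCs and 1185 and 2212 in PGCLCs and Klf5 299 and 141 in EpiLCs and 3600.3 and 3331 in PGCLCs. These Krüppel-like factors hold the naive state in ESCs, and every PGCLC library was above every EpiLC library for each. Tfcp2l1 rose by 5.51, Nr5a2 by 6.20, Nr0b1 by 2.67, Zfp42 (Rex1) by 3.95 and Tdh, a threonine dehydrogenase, by 3.62 on the log2 scale. Tbx3, a T-box factor, went from 27.3 and 4.4 to 2183 and 4063 normalised counts, and Tcl1, an AKT co-activator, from 4.8 and 10 to 1399.6 and 1315. Against this movement, Dppa2 did not pass the test (387 and 308 in EpiLCs and 480.5 and 440.1 in PGCLCs), and Fgf4 and Gbx2 fell, Fgf4 from 2684 and 2610.4 to 995 and 1409 and Gbx2 from 359.9 and 198 to 134 and 99.7. The fall of Fgf4 was not past the threshold without EpiLC replicate 1 or 2 (log2 fold change -1.09 in either case) or PGCLC replicate 1 (-0.87). That of Gbx2 was not past it without EpiLC replicate 1 (-0.74) or PGCLC replicate 2 (-1.0).

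The EpiLC libraries were not equal in the naive genes. 14 of the 15 were higher in EpiLC replicate 1 than in replicate 2, and the summed level of the list was 5708 and 4169, against 41749 and 44986 in PGCLCs. Replicate 1 was also the shallower EpiLC library. Leaving it out kept 12 members rising, the same number as leaving out replicate 2 or either PGCLC library.

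Genes of the formative and primed epiblast moved the other way. 12 of 15 fell (80%, against 18.2% over all genes) and 0 rose, with a median log2 fold change of -2.42. Pou3f1 (OCT6; chromosome 4, 124657646 to 124660655) had 7231 and 5424 in EpiLCs and 40.3 and 41.8 in PGCLCs (log2 fold change -7.22, standard error 0.37, adjusted p = 1.01e-08). Fgf5, the classical marker of the postimplantation epiblast, had 1839 and 2354 in EpiLCs and 41.7 and 18.7 in PGCLCs (log2 fold change -6.08, adjusted p = 2.64e-06). Sall2, a zinc finger factor, had 1900.5 and 2767 in EpiLCs and 41 and 63.1 in PGCLCs and Sox3, a SoxB1 factor, 744 and 859 in EpiLCs and 48.7 and 43.1 in PGCLCs. Tead2, Lef1 and Grhl2 fell too, with log2 fold changes of -2.60, -2.45 and -2.25. Otx2, the homeobox factor that holds EpiLCs back from the germline, had 1158 and 1718 in EpiLCs and 308 and 317 in PGCLCs, and its change of -2.17 on the log2 scale (standard error 0.86) missed the threshold at an adjusted p = 0.0574. It was past it with no low-count filter and when only the 4 libraries compared were fitted (-2.22). Utf1 had 9379 and 8299.9 in EpiLCs and 5375 and 4201 in PGCLCs, a log2 fold change of -0.84 that was past the threshold with all 4 libraries and not with any of them left out. Over these left-out libraries, 8 to 10 of the list fell.

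The genes that write DNA methylation fell in part. Dnmt3b (chromosome 2, 153649411 to 153687730), the de novo methyltransferase of the epiblast, had 42663 and 48315 in EpiLCs and 437 and 494 in PGCLCs (log2 fold change -6.57, standard error 0.34, adjusted p = 1.01e-08). Dnmt3a (chromosome 12, 3801559 to 3914443), the other de novo enzyme, had 18147 and 14657 in EpiLCs and 1302 and 1178 in PGCLCs (log2 fold change -3.68, standard error 0.31, adjusted p = 6.96e-07). For both de novo enzymes the PGCLC libraries lay far below the EpiLC libraries. Uhrf1, which brings DNMT1 to newly copied DNA, had 10704 and 9475 in EpiLCs and 2998 and 3709 in PGCLCs, a fall of smaller size (log2 fold change -1.54, adjusted p = 0.000107). Dnmt1 itself, the maintenance enzyme, had 6535 and 6671 in EpiLCs and 7965 and 7834 in PGCLCs and did not pass (log2 fold change 0.30, adjusted p = 0.0917), although it was past the threshold as a rise in DESeq2's Wald test (0.26) and with scaling by library totals (0.69). Dnmt3l, a cofactor without enzyme activity, had 2938 and 1534 in EpiLCs and 1429.5 and 1824 in PGCLCs, with the groups overlapping. In all, 3 of 5 writers fell, also with any 1 library left out.

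Among the erasers, Tet2 had 186 and 125 in EpiLCs and 3114 and 4812 in PGCLCs (log2 fold change 4.74) and Tet3 821 and 1019 in EpiLCs and 171 and 330.1 in PGCLCs (log2 fold change -1.84). The first rose and the second fell. Of 4 erasers listed, 2 rose and 2 fell, and 1 rose with any 1 library left out. Of 9 readers and imprint protectors, 6 rose, 2 fell (0 to 2 with 1 library left out) and the median log2 fold change was 0.84. Zfp57, a zinc finger protein that guards imprints, rose by 1.95 on the log2 scale and Uhrf2, the paralogue of Uhrf1, by 1.02. Of 23 histone modifiers, 6 rose (26.1%) and 7 fell (30.4%), against 22.4% and 18.2% over all genes. Their median of -0.10 became 0.29 with scaling by library totals. With each library left out in turn, 3 to 4 of them rose and 4 to 5 fell. Kdm3a and Kdm3b, demethylases of H3K9, rose by 1.43 and 1.42, and Ehmt1, which writes H3K9me2, fell by 1.04 on the log2 scale. Suz12, a subunit of the Polycomb complex PRC2, rose by 1.07. Pcgf6, a subunit of the noncanonical Polycomb complex that silences germline genes, and the arginine methyltransferase Prmt5 fell, with log2 fold changes of -1.35 and -1.50.

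Genes of the later germline were uneven. Of 29 late germ cell genes, which serve meiosis, the piRNA pathway or gametogenesis, 12 rose (41.4%), 4 fell (13.8%) and 13 did not pass. Over all genes 22.4% rose and 18.2% fell. The list's median log2 fold change was 0.33 against 0.07 over all genes. When scaled by library totals alone, 13 members rose and 1 fell. With each library left out in turn, 7 to 9 rose and 1 to 2 fell. Stra8, a gene of meiotic entry, had 4.8 and 6.7 in EpiLCs and 249.6 and 237 in PGCLCs (log2 fold change 5.33, standard error 0.56, adjusted p = 8.23e-06). Dazl, the RNA-binding protein that licenses germ cells for meiosis, had 81.9 and 93.9 in EpiLCs and 583 and 631 in PGCLCs (log2 fold change 2.81, standard error 0.48, adjusted p = 0.000354). Both were above every EpiLC library in each PGCLC library. Ddx4 (the vasa homologue), a helicase of later germ cells, had 90 and 205 in EpiLCs and 211 and 162 in PGCLCs and did not pass (log2 fold change 0.33, adjusted p = 0.425). Its EpiLC and PGCLC libraries overlapped. Mael, a piRNA pathway protein, was lower in PGCLCs, with 297 and 357 in EpiLCs and 73 and 86.2 in PGCLCs (log2 fold change -2.0, standard error 0.29, adjusted p = 0.000112). Sycp3, a protein of the synaptonemal complex, had 449.8 and 419 in EpiLCs and 187 and 188 in PGCLCs; its fall (log2 fold change -1.16, adjusted p = 0.00801) was not past the threshold without PGCLC replicate 1 (-1.16) or replicate 2 (-1.17). The cohesin subunit Stag3 rose by 1.57, the PIWI protein Piwil2 by 1.60 and the helicase Mov10l1 by 1.43 on the log2 scale.

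The promoters of 5 late germ cell genes, chosen after their values were seen, are shown here. They set the changes beside a sequence feature, the hexamer CACGTG (the canonical E-box, which reads the same on both strands). This hexamer is known as a binding sequence of MAX and its partners, among them the MGA subunit of the Polycomb complex that holds PCGF6. Windows run from 250 bases before to 50 bases after the gene's start and were taken from RefSeq (GRCm38.p6). They are printed 5′ to 3′ on the gene's strand, with CACGTG in capitals.
Dazl (chr17:50293571-50293870, minus strand): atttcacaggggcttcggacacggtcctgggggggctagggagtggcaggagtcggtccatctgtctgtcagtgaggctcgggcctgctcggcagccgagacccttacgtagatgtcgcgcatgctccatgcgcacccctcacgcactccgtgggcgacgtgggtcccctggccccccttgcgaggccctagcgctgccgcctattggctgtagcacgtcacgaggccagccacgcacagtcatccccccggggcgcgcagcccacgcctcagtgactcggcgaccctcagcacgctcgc
Stra8 (chr6:34920698-34920997, plus strand): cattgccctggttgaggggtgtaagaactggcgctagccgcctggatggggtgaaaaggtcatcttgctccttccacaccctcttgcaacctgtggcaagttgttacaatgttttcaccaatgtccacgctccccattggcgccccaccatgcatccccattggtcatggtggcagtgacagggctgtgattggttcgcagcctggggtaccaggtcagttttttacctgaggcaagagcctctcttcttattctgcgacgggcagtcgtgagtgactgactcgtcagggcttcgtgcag
Ddx4 (chr13:112652261-112652560, minus strand): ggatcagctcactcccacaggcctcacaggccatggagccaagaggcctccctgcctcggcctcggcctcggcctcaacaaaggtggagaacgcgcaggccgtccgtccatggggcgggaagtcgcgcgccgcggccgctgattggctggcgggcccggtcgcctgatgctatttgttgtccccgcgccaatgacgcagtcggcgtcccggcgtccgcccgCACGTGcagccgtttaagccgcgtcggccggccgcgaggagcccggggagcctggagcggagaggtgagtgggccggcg
Mael (chr1:166238695-166238994, minus strand): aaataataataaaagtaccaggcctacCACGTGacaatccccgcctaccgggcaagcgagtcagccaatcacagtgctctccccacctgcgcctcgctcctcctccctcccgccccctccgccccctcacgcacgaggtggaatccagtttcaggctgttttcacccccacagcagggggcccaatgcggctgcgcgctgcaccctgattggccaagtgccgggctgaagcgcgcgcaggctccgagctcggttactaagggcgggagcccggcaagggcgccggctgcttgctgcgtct
Sycp3 (chr10:88459337-88459636, plus strand): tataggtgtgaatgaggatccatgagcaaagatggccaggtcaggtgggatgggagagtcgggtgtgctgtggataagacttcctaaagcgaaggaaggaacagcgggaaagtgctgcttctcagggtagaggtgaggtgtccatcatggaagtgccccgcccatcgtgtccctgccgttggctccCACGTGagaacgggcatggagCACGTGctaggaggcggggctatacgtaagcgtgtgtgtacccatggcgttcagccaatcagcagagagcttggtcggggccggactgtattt
The windows of Dazl and Stra8 held no CACGTG, that of Ddx4 held 1 starting 29 bases before the gene's start, that of Mael 1 at 223 bases before, and that of Sycp3 2, at 64 and 43 bases before. Dazl's window held 28 CpG dinucleotides, Ddx4's 38, Mael's 24, Sycp3's 15 and Stra8's 10.

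Across the list, 25 of 29 genes matched a window, and 13 of these (52%) held CACGTG in at least 1, against 11.2% of the 12819 tested genes with a window, 8.31% of those higher in PGCLCs and 11% of those lower. By direction, 4 of 10 members that rose held it, 3 of 4 that fell and 6 of 11 that did not pass. Stag3 and Mov10l1, not among the 5 windows shown, rose and held it. The falling members are few, and only 1 member of the list fell when scaled by library totals alone. None of the windows of the 10 early PGC genes that matched held it. The AP-2 motif GCCNNNGGC, which reads the same on both strands, was in 24% of the windows of genes higher in PGCLCs, 19.9% of those lower and 24.2% of those of all tested genes. A match describes these letters only and says nothing of binding.

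**Figure D3:**
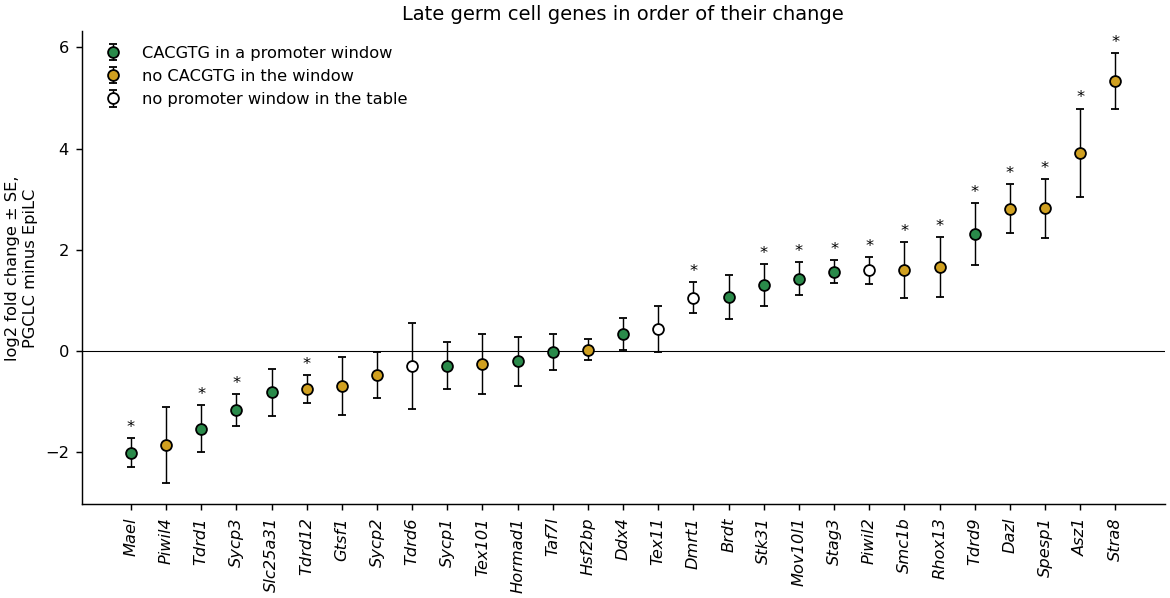
Log2 fold change in PGCLCs against EpiLCs (y axis; bars are 1 standard error) of the 29 late germ cell genes in order of change, coloured by whether a promoter window held CACGTG; asterisks mark adjusted p below 0.05. Genes with and without the hexamer occur among those that rose and those that fell, and Stra8 lies at the top and Mael at the bottom.

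Receptors and targets of the cytokines in the PGCLC medium were then examined by pathway. For LIF, 11 of 12 genes rose (91.7%, against 22.4% over all genes) and 1 fell, with a median log2 fold change of 2.50. The receptor subunit Lifr had 345 and 251 in EpiLCs and 2575 and 2903 in PGCLCs. Its partner Il6st had 254 and 261 in EpiLCs and 2317 and 2316 in PGCLCs. Socs3, the feedback inhibitor induced by STAT3, had 46.6 and 36.7 in EpiLCs and 949 and 973 in PGCLCs (log2 fold change 4.60, standard error 0.35, adjusted p = 3.01e-07). All 3 were higher in both PGCLC libraries. The kinase Pim1 rose by 1.80 on the log2 scale and Bcl3 by 3.82, both known STAT3 targets, and the receptor-associated kinase Jak1 rose from 421 and 472 to 1242 and 1209.8 normalised counts. Stat3 rose by 1.12 with all libraries and missed the threshold without EpiLC replicate 2 (0.83). Klf4 and Tfcp2l1, targets in this list, also belong to the naive list. So does Gbx2, the 1 member that fell.

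For BMP, 7 of 22 genes rose (31.8%, against 22.4% over all genes) and 2 fell (9.09%, against 18.2%), with a median log2 fold change of 0.40, while with 1 library left out 7 to 8 rose and 1 fell. The receptor Bmpr1a had 1452 and 1449.7 in EpiLCs and 1016 and 1098 in PGCLCs, and the transducer Smad1 had 339 and 361 in EpiLCs and 403 and 404 in PGCLCs. Neither passed the test. Among direct targets of SMAD1 and SMAD5, Id1 had 17.7 and 18.9 in EpiLCs and 298 and 254 in PGCLCs and Id4 9.6 and 5 in EpiLCs and 101 and 145 in PGCLCs, both rising, whereas Id3 had 284 and 267 in EpiLCs and 484 and 402 in PGCLCs and did not pass (adjusted p = 0.368). The inhibitory Smad6 and Smad7 rose by 2.13 and 1.14 on the log2 scale. Msx2, a homeobox target, had 2 and 0 counts in EpiLCs and 167 and 196 in PGCLCs, at least 37.3-fold higher. Its normalised counts were 116.1 and 126.1 in PGCLCs and 21.8 and 415.7 in the day 6 cells without cytokines. From EpiLCs to those cytokine-free cells, 15 of the 22 BMP genes rose and 3 fell, against 31.7% and 29.0% over all genes. Whether the added BMP caused the rises in PGCLCs was not tested. The ligand genes Bmp4 and Bmp7 were themselves higher in PGCLCs, Bmp4 with 40.2 and 41.1 in EpiLCs and 384 and 355 in PGCLCs and Bmp7 with 20.9 and 22.2 in EpiLCs and 125 and 111 in PGCLCs.

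Of the 5 receptors of SCF and EGF, 2 rose, Kit and Erbb3. Erbb3, which pairs with other ERBB receptors, had 546 and 734 in EpiLCs and 3975 and 3387 in PGCLCs (log2 fold change 2.56, adjusted p = 2.82e-06). Erbb2 had 138 and 161 in EpiLCs and 165 and 254 in PGCLCs and did not pass. In the FGF and ERK list, 6 of 20 rose (30%) and 4 fell (20%), near the 22.4% and 18.2% over all genes (median 0.41), and with 1 library left out 5 rose and 2 fell. The receptor Fgfr3 had 6.4 and 10 in EpiLCs and 189.8 and 138 in PGCLCs and Fgfr2 127 and 101 in EpiLCs and 409 and 359 in PGCLCs. Both receptors rose, and so did the feedback inhibitor Spry2, by 1.24 on the log2 scale.

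In the Nodal and activin list, 6 of 15 rose (40%) and 4 fell (26.7%), with a median of 0.18; with 1 library left out, 3 to 5 rose and 3 fell. Over all genes 22.4% rose and 18.2% fell. The ligand Nodal, with 871 and 673 in EpiLCs and 947 and 1022 in PGCLCs, and its co-receptor Tdgf1, with 3785 and 3296 in EpiLCs and 3552 and 3744 in PGCLCs, did not pass. Lefty1, an inhibitor induced by Nodal, fell by 1.82 and Foxh1, the partner of SMAD2, by 1.58 on the log2 scale. Inhbb, the activin B subunit, went from 6.4 and 2.8 to 493 and 412 normalised counts and Smad3 from 212 and 291 to 544 and 644. In the WNT list 3 of 15 rose and 1 fell, a count of rises that became 0 to 1 with 1 library left out. Those WNT shares, 20% and 6.67%, were below the 22.4% and 18.2% over all genes. Lef1, a transcription factor of the pathway, was the 1 member that fell.

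**Figure D4:**
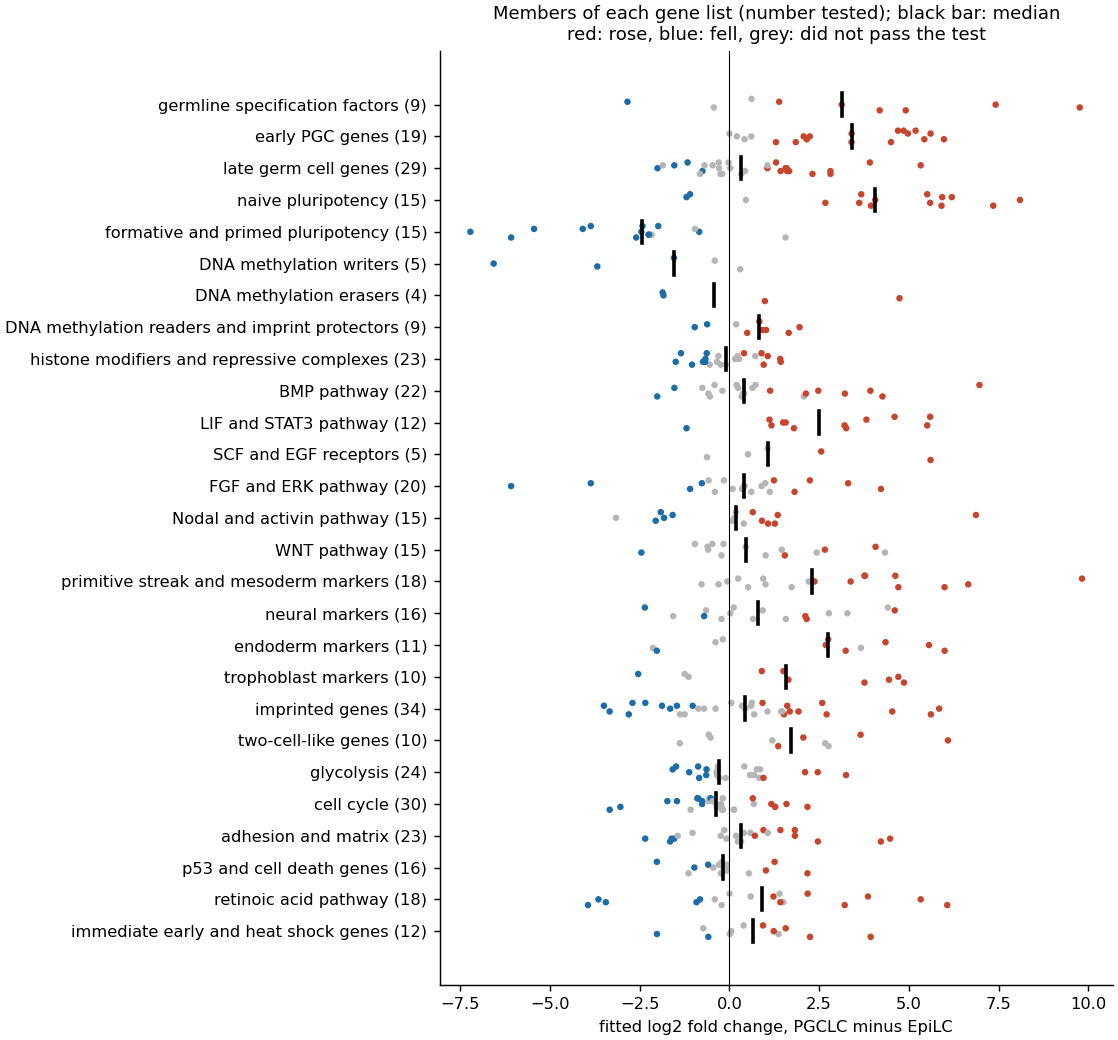
Each point is a tested member of a gene list, placed by its fitted log2 fold change in PGCLCs against EpiLCs (x axis); red members rose, blue members fell and grey members did not pass the test, black bars are list medians, and the number tested stands in brackets. The naive list has the highest median at 4.06 and the formative list the lowest at -2.42.

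Markers of somatic and extraembryonic lineages had small summed levels in PGCLCs, although many members rose. In the mesoderm, endoderm and trophoblast lists 50%, 54.55% and 70% of tested members rose, against 22.4% over all genes. Sums in the day 6 cells without cytokines were of similar size for the mesoderm list (1213 and 782) and the trophoblast list (1012 and 741). For the endoderm list they were 153 and 1436. The 20 primitive streak and mesoderm markers summed to 217 and 213 normalised counts in EpiLCs and 765 and 1039 in PGCLCs, and 9 of 18 tested rose (6 to 9 with 1 library left out). Eomes made up much of this sum, with 90 and 92.3 in EpiLCs and 458 and 460.1 in PGCLCs. Cdx1, a caudal homeobox gene, had no count in EpiLCs and 42.4 and 165 in PGCLCs, and Hand1 had 3.2 and 0 in EpiLCs and 11.8 and 39.3 in PGCLCs. PGCLC replicate 2 was above replicate 1 for 14 of the 18. Endoderm markers summed to 109 and 97.8 and 125 and 190.5, with 6 of 11 rising (1 to 6 with 1 library left out) and Gata6 at 1.6 and 0.6 in EpiLCs and 48 and 72.1 in PGCLCs. The trophoblast list summed to 1499 and 1394 and 665 and 930.5, with 7 of 10 rising and 3 to 5 when 1 library was left out. Krt18 fell, from 1076 and 955 to 121 and 217, though not past the threshold without PGCLC replicate 1 (-2.18).

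Neural markers summed to 1783 and 2111 in EpiLCs, 901 and 793 in PGCLCs and 64359.8 and 58106 in the day 6 cells without cytokines. Most of the EpiLC and PGCLC sums came from Nes and Tubb3, and Nes fell from 1059 and 1415 to 259 and 212. 3 of 16 neural markers rose and 2 fell (1 to 3 and 1 with 1 library left out), and Pax6, among those that rose, reached 75.1 and 41.2. Those neural shares, 18.75% and 12.5%, were below the 22.4% and 18.2% over all genes. Blood markers summed to 103 and 76.2 and 36.9 and 52.8, with no count of Hba-a1, Hba-a2 or Hbb-bt in either stage. 2-cell-like genes, known from early embryos, summed to 64.3 and 55.6 and 72.3 and 136; 4 of 10 rose, and 1 to 5 did with 1 library left out. Whether other cells in the sorted fraction gave these low signals was not tested.

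Of 34 imprinted genes, 10 rose (29.4%) and 9 fell (26.5%), with a median log2 fold change of 0.44. Over all genes these shares were 22.4% and 18.2%. H19, the maternally expressed noncoding RNA, had 53 and 15.6 in EpiLCs and 1198 and 1669 in PGCLCs (log2 fold change 5.61, standard error 1.0, adjusted p = 0.000495), and Igf2 of the same cluster had 45 and 37.2 in EpiLCs and 217 and 1602 in PGCLCs. Igf2 differed widely between the PGCLC libraries. Of the members that fell, the noncoding RNAs Rian and Mirg went from 4207 and 4803 to 647 and 606 and from 511 and 486 to 57 and 38.6, and Rtl1 from 643 and 775 to 68.8 and 53.4. Rtl1 is expressed from the paternal copy and overlaps transcripts antisense to it, and the counting did not use strand, so sense and antisense reads cannot be told apart there. Igf2r rose by 1.52, Peg10 by 2.59, and Phlda2 fell by 1.88 on the log2 scale. Grb10 fell from 1888 and 4176 to 508 and 404 normalised counts. Reads were not divided by parental copy, and imprint status was not measured.

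Energy genes moved in both directions. Of the glycolysis list 16.7% rose and 29.2% fell, against 22.4% and 18.2% over all genes. Of 24 glycolysis genes, 4 rose and 7 fell (2 to 4 and 4 with 1 library left out), and the median of -0.30 became 0.08 when libraries were scaled by their totals alone. Slc2a3, the high-affinity glucose transporter GLUT3, had 2570.4 and 2997 in EpiLCs and 23479.8 and 28019 in PGCLCs (log2 fold change 3.25, standard error 0.61, adjusted p = 0.000755). Hk1, a hexokinase, had 599 and 636 in EpiLCs and 2585 and 2596 in PGCLCs. Ldha, the lactate dehydrogenase subunit at the end of the pathway, had 31034 and 32649.9 in EpiLCs and 10772 and 11327 in PGCLCs and fell (log2 fold change -1.48, adjusted p = 0.000854). The transporter and the hexokinase rose, with no overlap between the stages. Of 82 oxidative phosphorylation subunits, 4 rose (4.88%) and 13 fell (15.85%), and of 77 cytosolic ribosomal protein genes 0 rose and 9 fell (11.69%). Their medians of -0.28 and -0.29 turned to 0.10 and 0.09 with scaling by totals, and the falling members numbered 2 to 5 and 1 to 4 with 1 library left out. They numbered 21 and 12 in DESeq2's Wald test and 43 and 41 when only the 4 libraries compared were fitted. No direction is given for either family.

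In the cell cycle list, 10 of 30 fell and 5 rose (6 to 8 and 3 with 1 library left out), and the median of -0.36 became 0.03 with scaling by totals. The falling and rising shares of this list were 33.3% and 16.7%, against 18.2% and 22.4% over all genes. Ccnd1, the cyclin that answers mitogens, had 5539 and 4303 in EpiLCs and 421 and 524 in PGCLCs, and Myc 953 and 940.0 in EpiLCs and 108 and 115 in PGCLCs. Both fell, as did Ccne1, from 4265 and 3173 to 1115 and 1058 normalised counts. Cdkn1a, which encodes the inhibitor p21, had 286 and 277 in EpiLCs and 1064 and 1403 in PGCLCs and rose, as did Ccnd3, from 1364 and 1192 to 4023 and 3434. The proliferation marker Mki67 rose by 1.17. Of 16 p53 and cell death genes 3 rose and 3 fell (18.75% each), near the 22.4% and 18.2% over all genes. Mdm2 and Trp53inp1, targets of p53, rose by 1.02 and 1.26, and Pmaip1 (Noxa) fell by 2.02. Without EpiLC replicate 1, or without PGCLC replicate 2, 1 gene of that list fell.

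Of the adhesion genes, Cdh1 (E-cadherin) had 10331 and 11249 in EpiLCs and 2949 and 3721 in PGCLCs (log2 fold change -1.65, standard error 0.21, adjusted p = 2.55e-05), while Cdh3 (P-cadherin) had 394 and 629 in EpiLCs and 1867 and 1688 in PGCLCs and rose by 1.83. Fibronectin, encoded by Fn1, had 4879 and 3961 in EpiLCs and 20658 and 26648 in PGCLCs. Of the laminin chains, Lama1 had 77.1 and 75 in EpiLCs and 1219 and 1537 in PGCLCs and Lamb1 3900.5 and 4225 in EpiLCs and 670.3 and 881 in PGCLCs, so that α1 rose and β1 fell. Zeb1, a repressor of E-cadherin, had 32.1 and 7.8 in EpiLCs and 336 and 369 in PGCLCs, and Epcam missed the threshold (log2 fold change -1.03, adjusted p = 0.0503), though it was past it under 6 alternatives, DESeq2's test among them (-1.07). Of 23 listed adhesion genes 8 rose (34.8%) and 4 fell (17.4%), against 22.4% and 18.2% over all genes, or 4 to 7 and 3 with 1 library left out.

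Of 18 retinoic acid genes, 7 rose (38.9%) and 5 fell (27.8%), against 22.4% and 18.2% over all genes, and without EpiLC replicate 2 or PGCLC replicate 2 only 3 rose. The carrier Crabp2 had 387 and 299.6 in EpiLCs and 20.9 and 31.5 in PGCLCs, the receptor Rxrg 70.7 and 40.6 in EpiLCs and 3.5 and 3.2 in PGCLCs and the retinol transporter Stra6 83.5 and 76.7 in EpiLCs and 7.6 and 6.4 in PGCLCs. These 3 fell, while Stra8, named for its response to retinoic acid, had the largest rise among the members with a mean of at least 100 normalised counts. Among 12 immediate early and heat shock genes, which can answer cell handling, 5 rose and 2 fell, or 1 fell with any 1 library left out. Fos had 30.5 and 12.2 in EpiLCs and 190.5 and 394 in PGCLCs and Hspb1 895 and 412 in EpiLCs and 2889.7 and 3049.5 in PGCLCs. Whether dissociation and sorting played a part was not tested.

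Some of the largest changes were in genes outside these lists. By a rule of an adjusted p below 0.05, a mean of at least 100 normalised counts and no overlap between the stages, the 12 highest log2 fold changes belonged to Prdm14, Adgrg6, Pla2g4e, Tbx3, Chdh, Tfap2c, Slc15a1, Tcl1, Mobp, Aqp3, Inhbb and Wnt7b. Aqp3, a water and glycerol channel, had 3.2 and 6.7 in EpiLCs and 609 and 784 in PGCLCs, and Wnt7b, a WNT ligand, 9.6 and 1.7 in EpiLCs and 485 and 418 in PGCLCs. Slc15a1, a peptide transporter, had 1.6 and 2.2 in EpiLCs and 365 and 345 in PGCLCs. Mobp, a gene known from myelin, had 3.2 and 2.8 in EpiLCs and 377 and 415 in PGCLCs. In these 4 genes, both PGCLC libraries were above 300 and both EpiLC libraries below 12. The 12 lowest belonged to Tmem54, Pou3f1, Tmem59l, Miat, Syt13, Wt1, Dnmt3b, Pim2, Jph4, Car4, Mmp25 and Fgf5. Pim2, a serine/threonine kinase, had 9726 and 8660.1 in EpiLCs and 101 and 121 in PGCLCs, and Car4, a carbonic anhydrase, 1157 and 1608 in EpiLCs and 17.4 and 17.4 in PGCLCs. Wt1, a zinc finger factor of the developing gonad and kidney, had 809.7 and 456 in EpiLCs and 4.2 and 8.4 in PGCLCs; an antisense transcript lies beside it, and the counting did not use strand. Syt13, a synaptotagmin, had 499.6 and 535 in EpiLCs and 4.2 and 5.8 in PGCLCs and Miat, a noncoding RNA, 803 and 848 in EpiLCs and 2.8 and 11.6 in PGCLCs.

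Genes near absent in one stage were counted by a fixed rule of at most 3 counts in each library of one stage and at least 100 normalised counts in each library of the other. 12 genes met it in PGCLCs and 2 in EpiLCs. Those of highest level included Prdm14, Pla2g4e, Adgrg6, Chdh, Tinagl1, Mras, Gpat3, Vax2 and Slc13a5. Mras was higher still in the day 6 cells without cytokines, with 454.7 and 315 normalised counts against 167.6 and 273.5 in PGCLCs. The others named were lower in those cells than in PGCLCs. Pla2g4e, a phospholipase A2, was at least 141-fold higher, with 479.8 and 437 normalised counts in PGCLCs. Adgrg6, an adhesion G protein-coupled receptor, was at least 121-fold higher and Chdh, choline dehydrogenase, at least 90.9-fold. Gpat3, an acyltransferase of glycerolipid synthesis, had no count in EpiLCs and was at least 45.5-fold higher. The 2 genes lost were Tmem54, with 461 and 414 normalised counts in EpiLCs and at least 218-fold lower, and Tmem59l, with 204 and 236 and at least 109.6-fold lower. Both encode transmembrane proteins.

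To see which of these changes also occurred without cytokines, PGCLCs were compared with the day 6 aggregates grown without them, and these in turn with EpiLCs. Against the cytokine-free cells, 4916 genes were higher in PGCLCs (29.6%) and 4743 lower (28.6%) at an adjusted p below 0.05, and 2105 (12.7%) and 2329 (14.0%) with the log2 limit of 2. Against EpiLCs, 5260 genes rose (31.7%) and 4804 fell (29.0%) in the cytokine-free cells. These comparisons share libraries, so each gene's own values are set side by side. The cytokine-free replicates were unlike each other for some genes (endoderm markers summed to 153 and 1436), and only 1 of the 2 day 6 groups was sorted.

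Germline factors were low without cytokines. Prdm1 had 5 and 1.2 in the cytokine-free cells, Prdm14 1.8 and 1.2, Dppa3 0.5 and 0 and Tfap2c 29 and 57.9. The log2 difference between PGCLCs and these cells was 8.91 for Prdm1 (standard error 0.51, adjusted p = 2.39e-09) and 6.43 for Tfap2c (standard error 0.29, adjusted p = 5.03e-10). Of the naive and core genes, Klf2 had 15 and 12.7, Esrrb 140.1 and 32.4 and Nanog 16.8 and 9.3. All these genes were higher in PGCLCs. Pou5f1, which did not pass between EpiLCs and PGCLCs, had 39 and 5.8 without cytokines, a log2 difference of 8.98 (adjusted p = 1.23e-08). Stra8 and Mael had no count in the cytokine-free cells, and PGCLCs were at least 101-fold and 32.9-fold higher. Dazl had 2.3 and 0. Mael was lower in PGCLCs than in EpiLCs and still above the cytokine-free cells, and Cdh1, with 23.6 and 34.7, had the same order of groups.

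Other falls were shared. Dnmt3b had 267 and 337 without cytokines against 437 and 494 in PGCLCs, a log2 difference of 0.67 (standard error 0.28, adjusted p = 0.0488). Lin28a had 1114 and 659 against 1497 and 1407, with a log2 difference of 0.75 (adjusted p = 0.0438). Both differences lay just inside the threshold. They were not past it with RLE factors (0.63 and 0.71), with scaling by library totals (0.37 and 0.45), with a filter at a mean CPM of 1 or when only the libraries compared were fitted. Neither were they past it when either PGCLC library was left out (Dnmt3b 0.76 and 0.59, Lin28a 0.71 and 0.80), nor Dnmt3b without cytokine-free replicate 1 (0.50) or Lin28a without cytokine-free replicate 2 (0.43). Dnmt3a, with 3752 and 3372, was higher without cytokines than in PGCLCs (log2 difference -1.48, adjusted p = 0.000364), and Pou3f1, with 462 and 619.5, likewise (log2 difference -3.67, adjusted p = 1.95e-07). Fgf5 had 3.2 and 0, below the PGCLC values of 41.7 and 18.7. Dnmt3b, Lin28a, Dnmt3a, Pou3f1 and Fgf5 were thus lower in both day 6 groups than in EpiLCs.

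Cxcr4 and Fgfr3 rose in PGCLCs and rose more without cytokines. Cxcr4 had 2041 and 1803 in the cytokine-free cells, -3.31 for PGCLCs minus these cells on the log2 scale (adjusted p = 8.23e-07). Fgfr3 had 4184 and 3086 (-4.43, adjusted p = 2.68e-08). Id1, a BMP target, had 383 and 3000.5 (-2.57, adjusted p = 0.00244), a difference that rested on cytokine-free replicate 2 and was -0.42, not past the threshold, without it. Kit, with 1254 and 521, lay between EpiLCs and PGCLCs. Tbx3, with 93.8 and 4.6, differed widely between the cytokine-free libraries, and both were below PGCLCs. Bmp4 had 5.9 and 15.1, the lowest of the 3 groups.

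The lists were counted in the same way. Of the 29 late germ cell genes, 24 were higher in PGCLCs than in the cytokine-free cells and 0 lower (median log2 difference 6.07), and 25 fell from EpiLCs to the cytokine-free cells. All 29 together summed to only 344.5 and 159.8 normalised counts in the cytokine-free libraries. The fitted difference of members with almost no counts there depends on the prior count. All 9 specification factors, 17 of 19 early PGC genes and 14 of 15 naive genes were higher in PGCLCs. The formative list did not have such a direction, with 5 of 15 higher and 5 lower. The 2-cell-like list had 9 of 10 higher, at low levels, with sums of 72.3 and 136 in PGCLCs and 0 and 0 without cytokines. In the other direction, 15 of 16 neural markers were lower in PGCLCs (median -6.86), and all 16 rose from EpiLCs to the cytokine-free cells. 13 of 22 BMP pathway genes were lower in PGCLCs and 4 higher. Of 34 imprinted genes, 18 were lower and 7 higher. These counts stand against 28.6% lower and 29.6% higher over all genes.

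**Figure D5:**
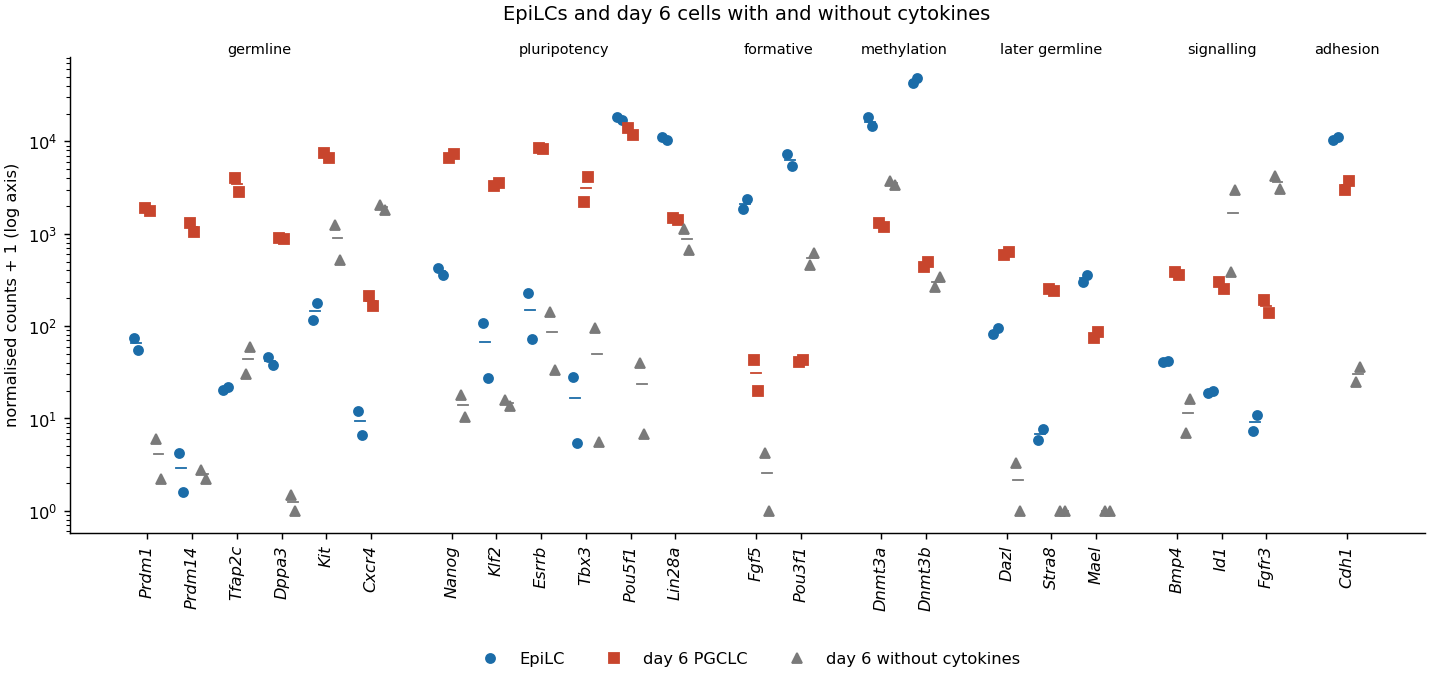
Normalised counts plus 1 (y axis, log scale) in each library of 3 wild-type groups; blue circles are EpiLCs, red squares day 6 PGCLCs, grey triangles day 6 cells without cytokines, and short bars group means. Dnmt3b and Lin28a are low in both day 6 groups, Prdm1, Prdm14, Tfap2c and Dppa3 are high in PGCLCs alone among these 3 groups, and Cxcr4 and Fgfr3 are highest without cytokines.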

How the data were processed

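The authors trimmed paired reads with Trim Galore (version 0.5.0, running cutadapt 1.16), aligned them to mm10 with STAR 2.7.1a and counted fragments per gene with featureCounts of Subread 1.5.2 on the RefSeq gene models, as per the labels, the methods and the file headers. Total RNA depleted of ribosomal RNA had been sequenced with a strand-marking kit, but the counting did not use strand and did not count fragments that map to several places or genes. The deposited values are raw counts. 33 lines that name no gene were left out. Of 25239 genes, 16582 passed filterByExpr and were tested.

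Counts of 18 libraries in 9 groups of 2 were fitted together with edgeR 4.0.16 (R 4.3.3; quasi-likelihood test, TMM factors, biological coefficient of variation 0.222), and p-values were adjusted over all tested genes by Benjamini-Hochberg. The standard error of a log2 fold change was taken as its size divided by the square root of F, an approximation. Genes rose or fell at an adjusted p below 0.05, and were higher or lower where the log2 fold change also passed 2. The comparison of cytokine-free cells with EpiLCs, from the same fit, was added after the design was set. Floors took 3 counts per library and cover counting error only. With 2 replicates a group, which the study calls biological, p-values rest on a spread between replicates estimated from all 18 libraries. The libraries compared are only part of these. DESeq2 1.42.0 gave size factors for the normalised counts and an alternative test. The script was tested on simulated data. Genes named are members of the lists (each counted whole; those whose call changed with a left-out library were mostly left unnamed), the 12 largest changes in each direction by the rule given in the text, and those of the 10 genes of highest level that were near absent in the other stage. Some items are not reported here. Promoters shown were chosen after the values were seen. Lists, members and named genes were chosen with earlier results of these data known. Promoter windows came from RefSeq (GRCm38.p6). Same-numbered replicates were not treated as pairs. A low correlation of their deviations cannot show that they were made separately, and the labels do not say how replicates were matched.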

Additional observations from a re-analysis of the deposited data

Results flagged for a closer look

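Among 23 named genes set beside the day 6 cells without cytokines, which were chosen with the results known so that their number has no reference, 7 moved in opposite directions from EpiLCs, up in PGCLCs and down without cytokines, each past the threshold and with the difference between the day 6 groups tested in the same edgeR quasi-likelihood fit. The log2 difference, PGCLCs minus cytokine-free cells, was 8.91 for Prdm1, 8.96 for Nanog, 7.94 for Klf2, 8.51 for Dazl and 5.36 for Bmp4. It was 11.01 for Dppa3 and 11.05 for Stra8, fitted values that depend on the prior count because these genes had at most 3 counts in each cytokine-free library. Taken against 3 counts per library, PGCLCs were at least 367-fold higher for Dppa3 and 101-fold for Stra8.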

How the results depend on the processing

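Between EpiLCs and PGCLCs, 138 of 144 named genes that passed the test kept direction and call under every alternative tried. The 6 others were Fgf4, Gbx2, Krt18, Stat3, Sycp3 and Utf1, and none turned direction. Genes whose call changed with a left-out library had mostly been left unnamed. The 138 of 144 therefore does not measure how stable calls were over all genes. Of the 17 named genes that had not passed, 15 were past the threshold under at least 1 alternative, 11 of them when only the libraries compared were fitted (among them Pou5f1, Sall4 and Otx2) and 6 when scaled by library totals. Ddx4 ran from -0.12 without EpiLC replicate 1 to 1.11 without EpiLC replicate 2 (log2), and Dnmt3l from 0.11 to -0.79 without the same libraries and 0.0064 when scaled by library totals. Rising genes numbered 2459 and falling genes 1852 at an adjusted p below 0.01, and falling genes 1542 when scaled by library totals. With 1 library left out, so that the lone library of its group is taken to vary like the others, 2445 to 2821 rose and 1775 to 2004 fell. At a log2 fold change beyond 1, 2606 were higher and 1790 lower, and against the cytokine-free cells 3531 and 3689. In that comparison 3145 rose when only the libraries compared were fitted. The causes were not tested. DESeq2's Wald test called 93.7% of the genes past both limits. Genes called without EpiLC replicate 2 held 69.0% of them.

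The replicate block left 3687 rising and 2968 falling genes. Same-numbered libraries did not deviate together (correlation of replicate differences -0.0119 for EpiLCs and PGCLCs, -0.156 for the day 6 groups), so the numbers were not taken as pairs. Of the named calls, the block ended that of Utf1 (-0.84). Exchanging the numbers of the cytokine-free libraries in the block, chosen after seeing the data, gave 4939 rising and 4720 falling genes, against 4893 and 4688 with the numbers as labelled. Groups held 2 libraries, and the shallower EpiLC library had 16674967 counts, which limits what low genes can show.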
